A study of Mus musculus with 8 samples.

Results

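The early growth response factors Egr1, Egr2, Egr3 and Egr4 and the Nab corepressors Nab1 and Nab2 were followed in bulk RNA-seq of hippocampal neurons cultured from C57/Bl6 wild type mouse embryos (day 18). The 6 genes were taken by name from a table of 45706 genes, together with their 20 transcripts of 109617. Cultures received melanin-concentrating hormone (MCH, 1 µM), a neuropeptide of the lateral hypothalamus, or its vehicle (H2O) for 4 h, with 4 wells per treatment numbered as replicates 1 to 4. All wells shared the wild type genotype and earlier fluorodeoxyuridine, given against overgrowth of glia, RNA was collected at 12 to 14 days in vitro, and the labels carry an Alzheimer’s disease model tag for all 8 wells alike. The study used 2 independent cultures and treated 2 wells of each per condition, so the 8 wells are fewer than 8 independent cultures and P values measure the spread between wells. Library totals ran from 26083936 to 31844861 estimated counts (median 27997746).

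Within each treatment the wells separated by replicate number. The leading component of the deviations from the treatment means held 59.8% of their variance. It set replicates 1 and 2 apart from replicates 3 and 4, in both treatments. Treatment means were taken out before this step, so this share was not compared with that of treatment. The labels give no batch or culture for a replicate number, so these pairs of wells are called by their numbers, and the fit with this split as a term is called the batch block. All 8 fixed neuronal markers were above 3 counts in every well. Levels are given as CPM, which are read counts scaled to the library total and its TMM factor. The summed level of 8 astrocyte markers was 1030 to 1148 CPM in replicates 1 and 2, against 2124 to 2398 CPM in replicates 3 and 4, and 8 fibroblast or vessel markers summed to 20.2 to 25.2 CPM and 55.8 to 59.5 CPM in the same order. The sums of 8 neuronal markers (7099 to 7423 CPM and 6442 to 6689 CPM) and 6 markers of inhibitory neurons (2660 to 2868 CPM and 2113 to 2387 CPM) were lower in replicates 3 and 4. In bulk RNA a change in the number of cells of a type and a change in RNA per cell cannot be told apart.

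The 6 genes lie on 5 chromosomes of GRCm38. Egr1 (ENSMUSG00000038418) is at chr18:34859823-34864984 on the plus strand and Egr3 (ENSMUSG00000033730) at chr14:70077203-70082614, also on the plus strand. Nab1 (ENSMUSG00000002881) spans 43386 bases at chr1:52457294-52500679 on the minus strand, and its most abundant transcript has 8 exons, against 2 or 3 exons in each Egr gene. The Egr and Nab genes overlap no other annotated gene, with the exception of Nab2, which overlaps Stat6, Nemp1 and the antisense gene Gm16229 on the opposite strand. The library kit was stranded, and these 3 neighbours held 4 to 29, 59 to 109 and 0 to 1 counts per well, below Nab2 itself at 818 to 1202 counts. Words of 31 bases shared with other genes made up 0 to 1.49% of each Egr gene’s transcript sequence, 0.41% for Nab2 and 6.37% for Nab1.

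Egr proteins are zinc finger transcription factors whose genes are induced within minutes of synaptic activity or growth factor signaling, through ERK, Elk factors and serum response factor (Srf). Egr1 is a widely used marker of neuronal activity, and Egr3 takes part in the later phase of the same response. Nab1 and Nab2 bind Egr1, Egr2 and Egr3 and restrain their transcriptional activity, in part by recruiting the chromatin remodeler Chd4. Egr4 lacks the region that Nab proteins bind. Nab2 is itself known to be induced by Egr factors, which forms a negative feedback loop.

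The upstream sequences of the genes are shown because Egr genes are known for Srf sites and cyclic AMP response elements close to their starts, and Nab2 for its induction by Egr factors. RefSeq windows of 250 bases upstream of annotated starts (GRCm38.p6) were searched on both strands for the CArG box that Srf binds, the cyclic AMP response element TGACGTCA, its core TGACG, the Egr motif GCGNGGGCG and the Ets core CCGGAA. The core is contained in the full element, so these matches can overlap. The window of Egr2 (ENSMUSG00000037868, gene at chr10:67535475-67542188, plus strand) ends at the base before the start of its most abundant transcript and lies at chr10:67537619-67537868. The window of Egr4 (ENSMUSG00000071341, gene at chr6:85511121-85513589, minus strand) lies at chr6:85513590-85513839 and is written on the minus strand. Capitals mark the matches.
Egr2: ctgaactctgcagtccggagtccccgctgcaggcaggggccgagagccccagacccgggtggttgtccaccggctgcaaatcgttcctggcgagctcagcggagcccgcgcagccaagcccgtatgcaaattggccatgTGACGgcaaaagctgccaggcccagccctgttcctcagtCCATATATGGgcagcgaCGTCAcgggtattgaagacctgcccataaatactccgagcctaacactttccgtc
Egr4: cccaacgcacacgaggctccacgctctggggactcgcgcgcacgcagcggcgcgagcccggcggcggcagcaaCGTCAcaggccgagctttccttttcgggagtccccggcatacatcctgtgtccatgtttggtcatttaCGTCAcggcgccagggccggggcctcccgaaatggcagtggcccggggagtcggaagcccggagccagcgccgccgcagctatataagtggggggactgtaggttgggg

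The Egr2 window held a CArG box at positions -72 to -63, where -1 is the base before the start, with a TGACG core on either side of it at -111 to -107 and -55 to -51. The Egr4 window held TGACG cores at -177 to -173 and -109 to -105 and no CArG box. A CArG box was found in 1.47% of all 32851 windows of this length, a TGACG core in 17.8%, the full element in 1.55%, the Egr motif in 4.70% and the Ets core in 12.03%. Egr2 has other annotated starts: a window whose start lies 303 bases further upstream, at chr10:67537316-67537565, held another CArG box and 3 overlapping or separate Ets cores. The window of the most distal start, 2370 bases upstream of the main one, lies at chr10:67535249-67535498 and held no match to any of the motifs. These matches describe letters and not occupied sites.

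In Nab1, 3 Egr motifs stood within the window before the RefSeq start at position 52500448 of chromosome 1, which falls inside the first exon of the most abundant GENCODE transcript, so that each is given only with 10 bases on either side. They lie at chr1:52500571-52500599, chr1:52500539-52500567 and chr1:52500468-52500496, on the minus strand as written, with the motif in capitals, and the most distal match reads on the opposite strand.
Nab1, positions -141 to -133: gccccgcggcCGCCCACGCcgggatctgc
Nab1, positions -109 to -101: actcggccgcGCGTGGGCGggagccggag
Nab1, positions -38 to -30: gcggggcgggGCGGGGGCGgcggaggtgg

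The Nab2 (ENSMUSG00000025402, chr10:127660918-127668568, minus strand) window held no match to these 5 motifs.

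The question of the comparison was which transcripts change in hippocampal neurons after 4 h of MCH. Of the Egr and Nab genes, Egr2 differed most: its mean level with MCH was 53.1% of that with vehicle, and no MCH well reached the lowest vehicle well. Egr1, Egr3 and Egr4 were 11.4%, 14.5% and 16.0% lower in the mean, with overlapping wells. Nab1 was 6.63% lower and Nab2 differed by 1.65%. None of the 6 passed an adjusted P of 0.05 in the test without a block (edgeR’s quasi-likelihood test, Benjamini-Hochberg adjustment over 14962 genes), which called 35 genes or 0.234%. Egr1 and Egr2 were the 2 with an unadjusted P under 0.05, in the lower direction, as were 4.22% of all genes tested. The limma voom fit called none of the 6, and DESeq2 none of the 5 for which it gave an adjusted P. For Egr2 DESeq2 gave no adjusted P, with an unadjusted P of 0.00015 that ranked 103 in a fit that called 157 of 24132 genes.

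Egr2 is a zinc finger factor known for hindbrain patterning and for Schwann cell myelination, and its gene is also activity dependent in neurons. The vehicle wells held 2.67, 2.94, 2.71 and 3.34 CPM in replicates 1 to 4. The MCH wells held 1.92, 1.80, 1.42 and 1.05 CPM. All MCH wells were below all vehicle wells, as for 2.96% of the genes tested. The level was 2.92 ± 0.31 CPM with vehicle and 1.55 ± 0.39 CPM with MCH (SD, n = 4 each), a log2 fold change of -0.91 ± 0.21 (SE, edgeR adjusted P = 0.18). These levels rest on 69 to 90 reads per vehicle well and 30 to 60 reads per MCH well. With the replicate number as a block, which called 596 genes (3.98%), the log2 fold change was -0.92 and Egr2 passed (edgeR adjusted P = 0.011), and with the batch block, which called 668 genes (4.46%), it passed as well (-0.92, edgeR adjusted P = 0.0046). With transcript length taken into account the log2 fold change was smaller, -0.55 ± 0.29 with edgeR (adjusted P = 0.79) and -0.56 with DESeq2 (SE, adjusted P = 0.79).

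Egr2 can also come from glia, so the markers of microglia and of the oligodendrocyte lineage were read beside it. Of 7 microglial markers 4 were above 3 counts in every well, Tmem119 was at or under 3 counts, and the list summed to 4.74 to 10.2 CPM with vehicle and 5.68 to 9.81 CPM with MCH. Of 8 markers of the oligodendrocyte lineage 6 were above 3 counts in every well, with Sox10 and Mog at 0. Their sum was 66.8 to 147 CPM with vehicle and 57.8 to 146 CPM with MCH. The ranges of the treatments overlapped for both lists. Between replicate pairs they did not: the oligodendrocyte lineage summed to 57.8 to 67.7 CPM in replicates 1 and 2 and to 125 to 147 CPM in replicates 3 and 4, and microglia to 4.74 to 6.74 CPM and 7.65 to 10.2 CPM, the same pairs between which the Egr2 fold changes given further on are compared. The share of Egr2 reads from each cell type was not tested.

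Egr1 read 97.1, 88.5, 94.4 and 88.6 CPM in vehicle replicates 1 to 4 and 91.4, 84.6, 78.7 and 71.8 CPM in the MCH replicates. Each MCH well was below the vehicle well of the same number, while the groups overlapped because MCH replicate 1 stood above vehicle replicates 2 and 4. The means were 92.1 ± 4.32 CPM and 81.6 ± 8.39 CPM (SD, n = 4 each), and the log2 fold change was -0.17 ± 0.07 (SE, edgeR adjusted P = 0.54). Egr1 passed with the replicate block (-0.18, edgeR adjusted P = 0.023), which assumes that equal numbers pair wells, and not with the batch block (edgeR adjusted P = 0.085). Without MCH replicate 4 its log2 fold change was -0.11.

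Egr3, which binds the same GC-rich motif as Egr1, read 40.4, 38.4, 54.2 and 46.6 CPM with vehicle and 38.0, 38.9, 41.9 and 34.7 CPM with MCH. The highest values were vehicle replicates 3 and 4, and the other 6 wells lay between 34.7 and 41.9 CPM. Egr4, the member without a Nab-binding region, read 22.5, 26.3, 30.1 and 30.1 CPM with vehicle and 24.6, 24.96, 22.9 and 19.0 CPM with MCH. Here too vehicle replicates 3 and 4 were highest, and MCH replicate 4 was lowest. The log2 fold changes were -0.23 ± 0.11 for Egr3 and -0.25 ± 0.11 for Egr4 (SE, edgeR adjusted P = 0.63 and 0.59), and neither passed with a block. Without vehicle replicate 3 the value of Egr3 was -0.12, and without MCH replicate 4 that of Egr4 was -0.17.

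The corepressor Nab1 read 64.0, 59.5, 61.9 and 60.1 CPM with vehicle and 59.6, 53.9, 55.9 and 59.8 CPM with MCH, each MCH well below its same-numbered vehicle well and the 2 groups overlapping. Its log2 fold change was -0.10 ± 0.05 (SE, edgeR adjusted P = 0.61). Nab2 read 33.2, 34.1, 40.5 and 40.1 CPM with vehicle and 31.8, 30.7, 40.7 and 42.2 CPM with MCH. The 4 wells of replicates 3 and 4 were all above the 4 wells of replicates 1 and 2, irrespective of treatment, and the log2 fold change with MCH was -0.02 ± 0.12 (SE, edgeR adjusted P = 1.00). Its direction turned to higher with transcript length as an offset, with a log2 fold change of 0.11.

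**Figure D1:**
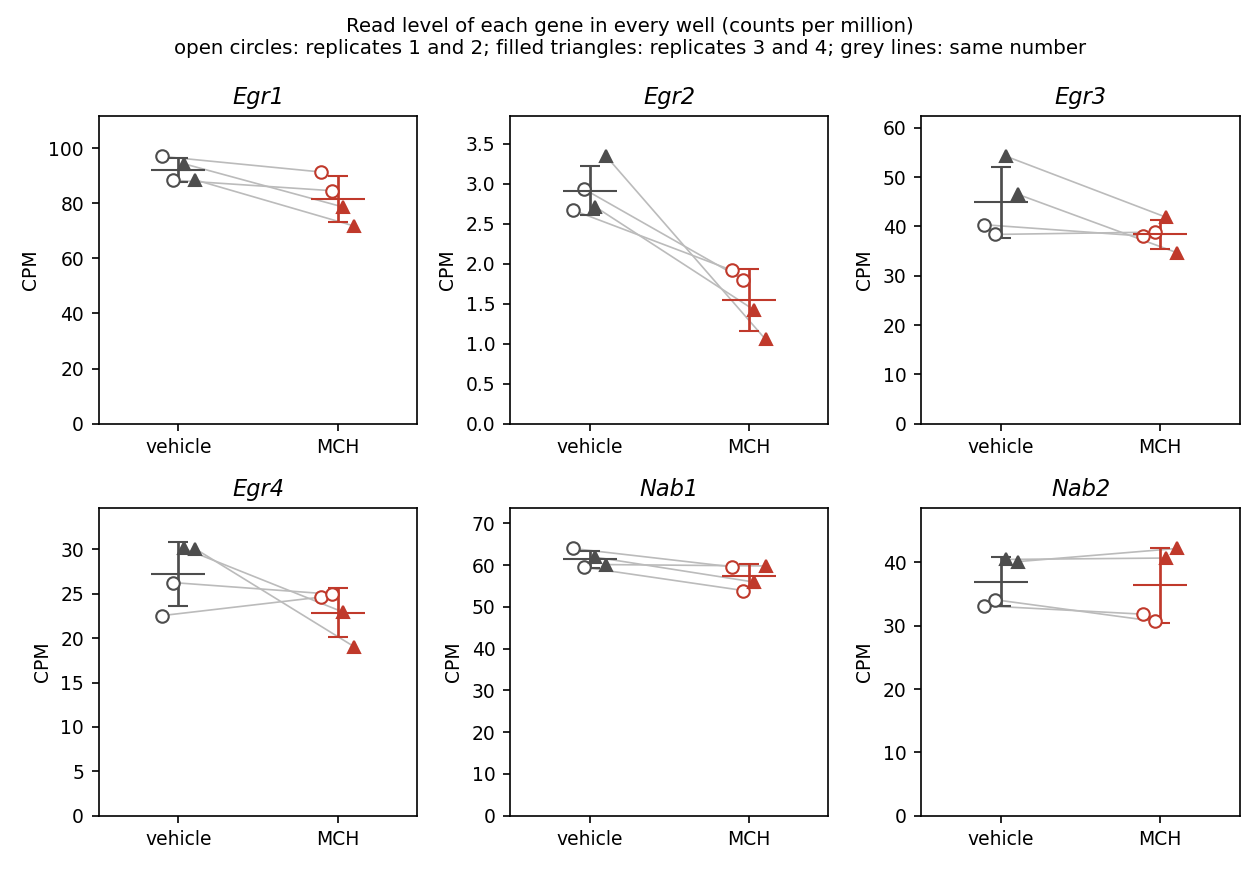
Level of each Egr and Nab gene in every well, in CPM on a linear axis from 0, for vehicle (grey) and MCH (red), with mean and SD bars (n = 4) and grey lines joining wells of the same replicate number. All MCH wells of Egr2 lie below all vehicle wells, the steeper lines of Egr3 and Egr4 belong to replicates 3 and 4 (triangles), and Nab2 separates by replicate number.

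The difference between treatments was then read within each pair of replicate numbers, which sets 2 MCH wells against 2 vehicle wells. The fit estimated the spread over all wells, and the pairs were themselves read from these counts. The wells of a pair may come from the same culture, so the P values measure the spread between wells. In replicates 3 and 4 the log2 fold changes were -0.28 ± 0.06 for Egr1, -1.29 ± 0.24 for Egr2, -0.40 ± 0.09 for Egr3 and -0.52 ± 0.09 for Egr4 (SE). In replicates 1 and 2 they were -0.07 ± 0.06, -0.59 ± 0.23, -0.03 ± 0.09 and 0.02 ± 0.09 in the same order. For Nab1 the values were -0.12 ± 0.06 in the wells numbered 1 and 2 and -0.08 ± 0.06 in those numbered 3 and 4, and for Nab2 -0.10 ± 0.06 and 0.04 ± 0.06 (SE). Within replicates 3 and 4 the edgeR test called 3 of the 6 genes, Egr1 (adjusted P = 0.032), Egr2 (adjusted P = 0.0096) and Egr4 (adjusted P = 0.0050), where 0.782% of all genes were called. Egr3 had an edgeR adjusted P of 0.056 there. Within replicates 1 and 2 the test called none of the 6 although it called 3.87% of all genes, and Egr2 had the lowest edgeR adjusted P (0.17) and the 1 unadjusted P under 0.05.

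The difference of the treatment effect between the pairs was tested itself, as an interaction. None of the 6 passed, and 4 genes or 0.0267% did. Egr1, Egr2, Egr3 and Egr4 had an unadjusted P under 0.05, as had 7.6% of all genes, with Egr4 the farthest at a log2 difference of -0.54 ± 0.12 (SE, edgeR adjusted P = 0.19). Without the filter on low counts Egr3 (-0.39) and Egr4 (-0.57) passed the interaction test (edgeR adjusted P = 0.0038 and 0.00013), in a fit that called 266 of 24132 genes. With RLE scaling in place of TMM neither passed (edgeR adjusted P = 0.58 for Egr3 and 0.21 for Egr4), in a fit that called 4 genes. With vehicle alone, replicates 3 and 4 stood above replicates 1 and 2 by 0.35 for Egr3, 0.31 for Egr4 and 0.26 for Nab2 on the log2 CPM scale. With MCH the same differences were -0.01, -0.25 and 0.41. The marker sums of astrocytes, fibroblasts or vessels, the oligodendrocyte lineage, microglia, neurons and inhibitory neurons all differ between these same pairs of replicates without overlap, and their part in these values was not tested.

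**Figure D2:**
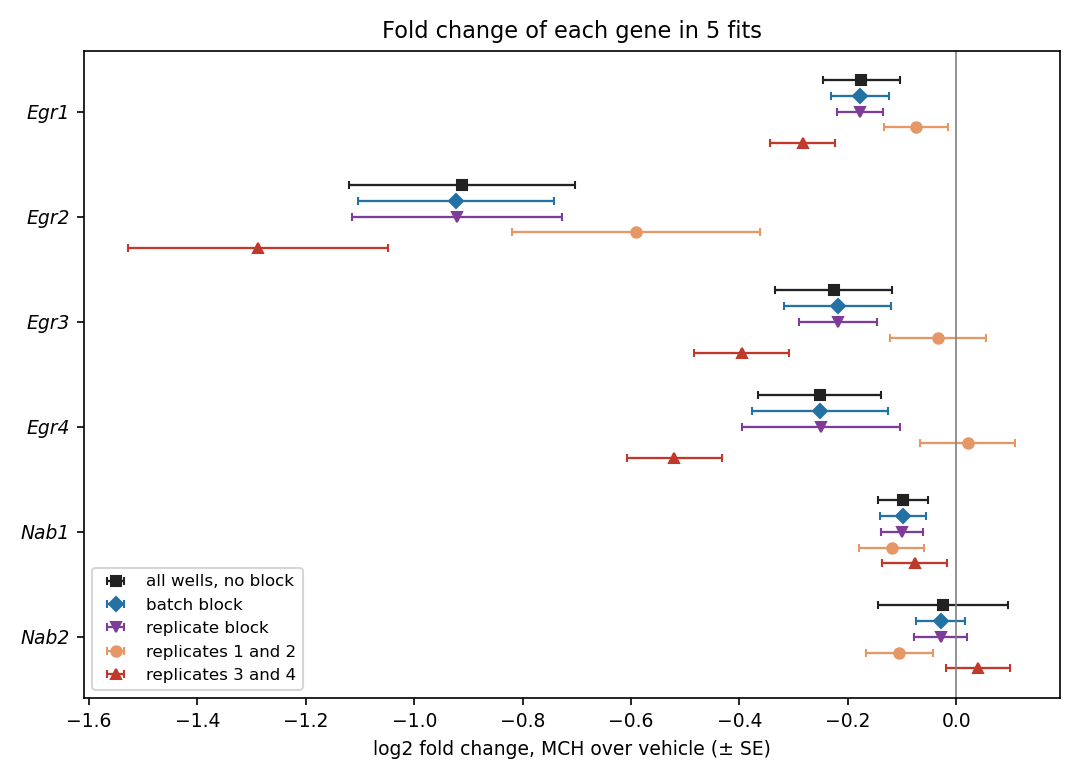
Log2 fold change of MCH over vehicle (points, bars give the SE) for each Egr and Nab gene in 5 edgeR fits: all wells without a block, with the batch block, with the replicate block, and within replicates 1 and 2 or 3 and 4. The Egr points of replicates 3 and 4 (red triangles) lie left of those of replicates 1 and 2 (orange circles) in all 4 Egr genes, and Egr2 lies farthest from 0 in each fit.

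Whether the members changed unequally was tested by the ratio of each gene to Egr1 in the same well, which does not depend on scaling between wells. The log2 ratio of Egr2 to Egr1 was -4.99 ± 0.21 with vehicle and -5.75 ± 0.25 with MCH (SD, n = 4 each), a difference of -0.77, and all MCH wells were lower. A two-sided exact permutation test gave P = 0.029, the lower limit of this design with 70 assignments, which became 0.14 after adjustment over the 5 ratios. With TPM in place of CPM the difference was -0.46 (exact permutation P = 0.14), and with permutation within replicate numbers P was 0.13, the smallest that 4 pairs allow. The ratio to Egr1 differed by -0.04 for Egr3, -0.07 for Egr4, 0.08 for Nab1 and 0.15 for Nab2, with exact permutation P values of 0.51 to 0.83. These values moved with single wells: without vehicle replicate 1 the Egr4 ratio differed by -0.18 (exact permutation P = 0.029) and without vehicle replicate 4 by -0.001, and without MCH replicate 4 the Nab2 ratio differed by 0.01 and the Nab1 ratio by -0.001.

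Levels per length, as TPM (reads scaled to transcript length and library, summed over transcripts), set the genes in an order that CPM cannot give. With vehicle Egr3 was highest at 65.0 ± 10.9 TPM, followed by Egr1 at 54.9 ± 2.74, Nab1 at 41.0 ± 7.93, Nab2 at 32.7 ± 5.65, Egr4 at 24.2 ± 3.36 and Egr2 at 1.82 ± 0.18 TPM (SD, n = 4). Neighbours in this order overlapped between wells for Egr3 and Egr1, Nab1 and Nab2, and Nab2 and Egr4, where the lowest Nab2 well stood at 27.02 and the highest Egr4 well at 27.04 TPM. Egr1 was above Nab1 in every vehicle well, and Egr2 was below all others. With MCH the order was the same, at 56.4 ± 4.29, 49.6 ± 4.85, 39.8 ± 6.01, 35.6 ± 8.15, 20.7 ± 2.41 and 1.26 ± 0.51 TPM. The TPM of Egr3 rests on a transcript of 1416 bases in the deposited tables, where the annotation used here gives 1509 bases and 3 more transcripts.

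Among the Egr genes, Egr3 made up 44.3 ± 2.99% of the summed TPM with vehicle and 44.1 ± 2.43% with MCH, Egr1 37.9 ± 3.53% and 38.8 ± 1.85%, Egr4 16.6 ± 1.53% and 16.1 ± 0.78%, and Egr2 1.25 ± 0.16% and 0.97 ± 0.34% (SD, n = 4). For Egr3, Egr1 and Egr4 these shares differed between treatments by less than the SD. The summed Egr TPM was 1.71 to 2.55 times the summed Nab TPM in the vehicle wells and 1.31 to 1.91 times in the MCH wells. The highest vehicle value was that of replicate 3, and the other vehicle wells lay at 1.71 to 1.90. The lowest MCH value was that of replicate 4, and the other MCH wells lay at 1.75 to 1.91. The Nab sum includes short transcripts, which weigh more per read. By summed TPM, Nab2 stood at 0.59 to 0.75 times Nab1 in replicates 1 and 2 and at 0.97 to 1.23 times Nab1 in replicates 3 and 4. This ratio also moves with reads placed on short Nab1 and Nab2 transcripts. On the log2 CPM scale replicates 3 and 4 differed from replicates 1 and 2 by -0.02 with vehicle and 0.03 with MCH for Nab1. For Nab2 these differences were 0.26 and 0.41.

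**Figure D3:**
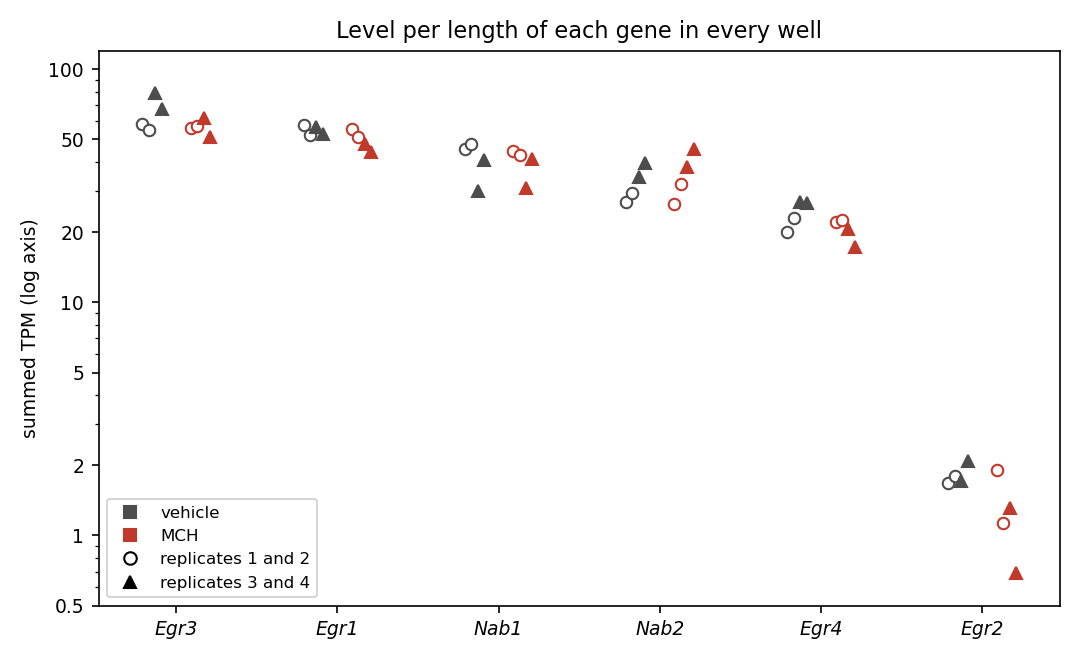
Summed TPM of each gene in every well on a log axis, in the order of the vehicle means, with vehicle in grey, MCH in red, circles for replicates 1 and 2 and triangles for replicates 3 and 4. Egr2 lies between 0.69 and 2.08 TPM, below the lowest value of any other gene (17.2 TPM, Egr4).

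Of the 20 transcripts, 12 had a mean of at least 10 reads and 5 held no read in any well. None of these 12 passed, as none of the 33527 transcripts tested did (0.0%), with 1 of the 12 and 1476 of all at an unadjusted P under 0.05. With the batch block 6 of all transcripts passed, none of them from the Egr and Nab genes. Egr3 and Egr4 each had 1 transcript in the tables. Egr1 reads lay mainly on ENSMUST00000165033 (2392 ± 106 reads with vehicle and 2276 ± 319 with MCH, SD, n = 4), which held 97.1 ± 0.43% of the gene’s TPM with vehicle and 97.7 ± 0.62% with MCH (exact permutation P = 0.14). Without MCH replicate 1 this difference was 0.87 percentage points (exact permutation P = 0.029). The longer Egr1 transcript ENSMUST00000064795 had 110 ± 21.9 and 82.7 ± 33.2 reads, a log2 fold change of -0.52 ± 0.29 (SE, edgeR adjusted P = 1.00).

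Egr2 reads were placed mainly on ENSMUST00000048289, with 73.3 ± 19.6 reads with vehicle and 33.7 ± 23.5 with MCH (SD, n = 4), and a log2 fold change of -1.20 ± 0.99 (SE, edgeR adjusted P = 1.00). In MCH replicate 4 all 30 reads were placed on the alternative transcript ENSMUST00000105438 and none on ENSMUST00000048289. The alternative transcript also held reads with vehicle (5.98 ± 11.97, SD, n = 4), and 6 wells held none on it. In MCH replicate 1, 8.37 of the reads were placed on ENSMUST00000145754, a transcript of 773 bases, which raised the TPM of that well to 1.92 and into the range of the vehicle wells. On transcripts of at least 1000 bases alone, Egr2 stood at 1.68 to 2.08 TPM with vehicle and at 0.69 to 1.13 TPM with MCH, which did not overlap. On the scale corrected for transcript length the log2 fold change of Egr2 was -0.55 (edgeR adjusted P = 0.79), against -0.91 by reads.

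Nab1 reads were divided between ENSMUST00000069792 (953 ± 131 with vehicle and 1008 ± 154 with MCH) and ENSMUST00000186764 (670 ± 110 and 600 ± 69.0; SD, n = 4), whose log2 fold changes were -0.01 ± 0.11 and -0.24 ± 0.13 (SE, edgeR adjusted P = 1.00 for both). The short transcripts ENSMUST00000167732 (514 bases) and ENSMUST00000168082 (433 bases) had means of 29.4 and 17.6 reads, with no read in 2 wells and 1 well respectively. Because short transcripts weigh more per read, Nab1 stood at 28.6 ± 1.42 TPM with vehicle (SD, n = 4) instead of 41.0 when transcripts under 1000 bases were left out. ENSMUST00000069792 held 41.7 ± 13.3% of the Nab1 TPM with vehicle and 41.9 ± 5.53% with MCH (SD, n = 4, exact permutation P = 1.00).

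Nab2 reads lay on ENSMUST00000026469 (857 ± 204 with vehicle and 853 ± 165 with MCH), ENSMUST00000099157 (137 ± 79.2 and 175 ± 70.03) and the 386-base ENSMUST00000129252 (12.7 ± 7.71 and 19.8 ± 10.4; SD, n = 4). Their log2 fold changes were -0.09 ± 0.18, 0.27 ± 0.55 and 0.57 ± 0.62 (SE, edgeR adjusted P = 1.00 for each). ENSMUST00000026469 held 69.5 ± 8.57% of the Nab2 TPM with vehicle and 62.2 ± 11.6% with MCH (SD, n = 4), which a two-sided exact permutation test did not separate (P = 0.34). Without 1 well this difference of -7.30 percentage points ran from -11.5 to -3.13. Without transcripts under 1000 bases Nab2 stood at 26.9 ± 2.60 TPM with vehicle and 26.8 ± 4.37 with MCH (SD, n = 4), with wells that overlapped those of Nab1 on the same scale (28.6 ± 1.42 and 27.0 ± 1.53 TPM).

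The mRNA of the pathway around the Egr genes was read from 5 lists. Each is described by its calls and its median log2 fold change beside -0.003 over all genes. The activity of the proteins, such as phosphorylation of ERK, was not measured. In the ERK and Srf pathway that induces Egr genes, none of 22 tested genes was called lower or higher by edgeR without a block, where 0.207% of all genes were called lower, and the median was -0.01. DESeq2 and limma voom called none of the 22 either, and 3 had an unadjusted P under 0.05 with edgeR, against 8.5% of all genes. Its lowest value was -0.19 ± 0.09 for Rps6ka2, a ribosomal S6 kinase downstream of ERK, and its highest 0.18 ± 0.08 for the histone acetyltransferase Ep300 (SE). Srf itself had -0.04 ± 0.04 (SE). With the batch block, which called 2.61% of all genes lower, Rps6ka2 was the 1 gene of this list called (edgeR adjusted P = 0.0042), and the replicate block called 1 as well.

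Of 25 genes reported as Egr targets, 19 were tested and 1 fell: Arc, a cytoskeletal regulator of AMPA receptor endocytosis. The study itself counts Arc among the immediate early genes, and whether Egr factors lowered it was not tested. Arc was at 56.2 ± 1.86 CPM in vehicle wells and at 37.3 ± 2.45 CPM after MCH (SD, n = 4 each), a log2 fold change of -0.59 ± 0.05 (SE, edgeR adjusted P = 0.0049). The median of the list was -0.03, 11 of the 19 were below 0, and with the batch block 2 were called lower (Arc and the nuclear receptor gene Nr4a3) and none higher, as 2 were called with the replicate block. The other 6 did not pass the filter on low counts.

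None of 14 genes of the Chd4 and NuRD corepressor complexes was called by edgeR without a block (2 at an unadjusted P under 0.05), by DESeq2 or by limma voom, with a median of -0.02 and values from -0.10 ± 0.04 (Mbd3, a methyl-CpG binding domain protein) to 0.15 ± 0.05 (Gatad2b, a zinc finger subunit; SE). Gatad2b was the 1 gene of this list called with the batch block, in the higher direction (edgeR adjusted P = 0.033), and the replicate block called 1. Chd4, the remodeler that Nab2 binds, had 0.05 ± 0.06 (SE). None of 8 other factors on GC-rich sites or partners of Egr was called by edgeR with or without a block, by DESeq2 or by limma voom, and 0 had an unadjusted P under 0.05 without a block. Their median was 0.04 and they ran from -0.004 ± 0.08 (Ddx20, a helicase) to 0.13 ± 0.06 (Sp4, a neuronal Sp factor; SE).

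The other immediate early factors had a median of -0.38. Of 20 tested, 5 fell without a block and 11 with the batch block, and none rose in either. The replicate block called 12, DESeq2 7 and limma voom 5. Srf and Nr4a3 stand in this list as well as in the earlier ones. The 5 that fell without a block were Fos (-0.91 ± 0.08), Fosb (-0.80 ± 0.07) and Fosl2 (-0.41 ± 0.05) of AP-1, the activity-dependent factor Npas4 (-0.94 ± 0.11) and the nuclear receptor Nr4a2 (-0.39 ± 0.05; log2 fold change ± SE, edgeR adjusted P of 0.0049 to 0.025). Nr4a1 had the lowest value of the list, -1.05 ± 0.19 (SE). It did not pass without a block (edgeR adjusted P = 0.13) and passed with the batch block (edgeR adjusted P = 2.1e-07). The read-based log2 fold change of Egr2 was -0.91 ± 0.21 (SE) and -0.55 with the length offset, while Egr1, Egr3 and Egr4 lay between -0.25 and -0.17, and the median of the 6 Egr and Nab genes was -0.20. This list was chosen with earlier results of these data known, so its direction is not independent evidence.

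**Figure D4:**
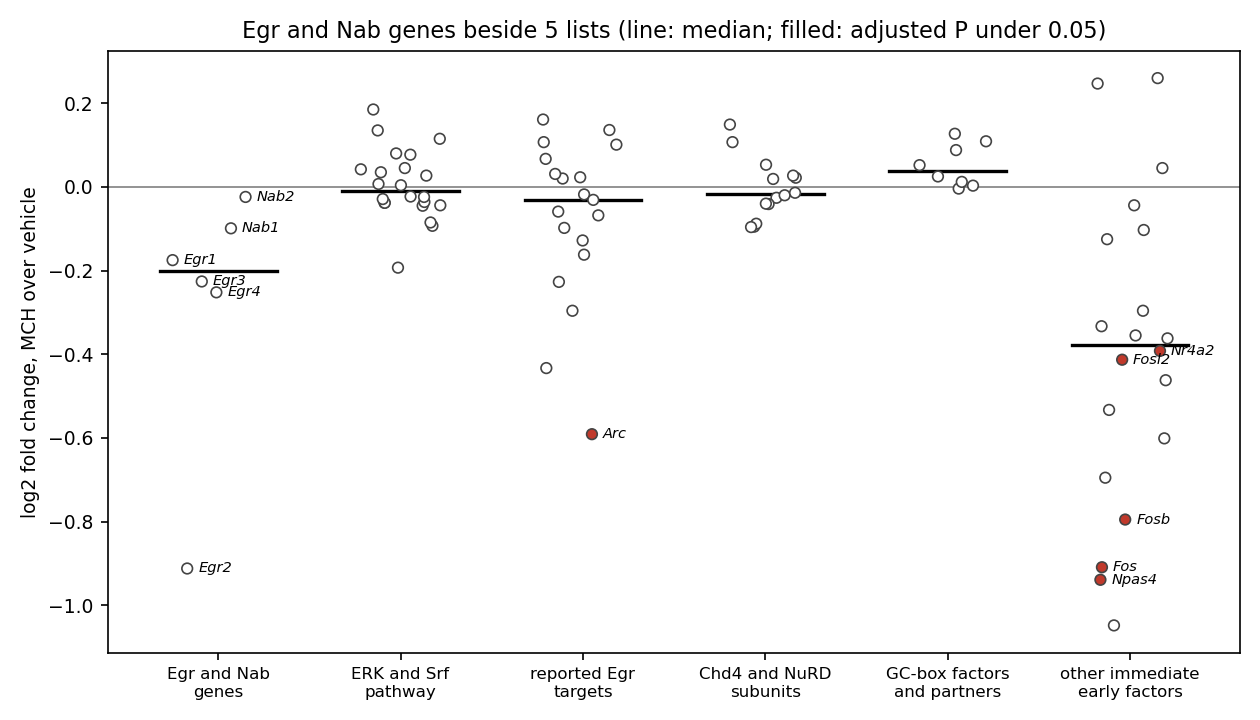
Log2 fold change of MCH over vehicle from the edgeR fit without a block, for the Egr and Nab genes and the tested genes of 5 lists (points, spread sideways for legibility; lines are medians; filled points have an adjusted P under 0.05). The medians are -0.20 for the Egr and Nab genes, -0.38 for the other immediate early factors and between -0.03 and 0.04 for the other 4 lists.

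The genes whose log2 CPM followed each member most closely over the 8 wells, which include both treatments and both pairs of replicates, were named by Pearson’s r among 14961 genes. For Egr1 these were Klf13 (r = 0.98), Sncg and Ythdc2, for Egr2 Gpsm1 (r = 0.99), Gmeb1 and Srsf12, and for Egr3 Pigb (r = 0.95), Mark2 and Maf. For Egr4 they were Arf6 (r = 0.96), Cd1d1 and Lzts3, and for Nab1 Gpr180 (r = 0.95), Chac2 and Supv3l1. Nab2 had the closest matches, Gli2 (r = 1.00), Top2a and Six3, genes known from dividing or progenitor cells, which like Nab2 had log2 fold changes of -0.06 to 0.01 with MCH. None of these 18 genes passed the edgeR test between treatments without a block, with adjusted P values of 0.27 to 1.00. The matches were picked from the top of 14961 values of r over 8 wells. How high r runs by chance in such a search was not tested, so these names show no link to the members. Among them, Sncg and Cd1d1 averaged only 0.43 and 0.88 CPM in the vehicle wells. Nab2 itself separated by replicate pair, and whether its matches follow more than this split was not tested.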

How the data were processed

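PolyA RNA of 8 wells was made into stranded libraries. The authors ran Salmon within nf-core/rnaseq against GRCm38 and deposited estimated counts and TPM per transcript and a table of estimated counts per gene (all 8 columns matched a sample). Their notes list R 4.0.3 and DESeq2 1.13.0. Gene counts were rounded, 9.13% of values not being whole. Symbols, transcripts (98.7% matched) and coordinates came from GENCODE for GRCm38, and promoter windows from RefSeq (no window of Egr1 or Egr3 was used). Genes were filtered with filterByExpr (minimum count 10, total 15), scaled by TMM and tested with edgeR 4.0.16 quasi-likelihood (R 4.3.3), adjusted over all genes, threshold 0.05. DESeq2 1.42.0 and limma 3.58.1 were alternatives, with other scaling, filter, length and block settings and each well left out. Transcript shares and ratios used two-sided exact permutation tests over 70 assignments. TPM is the deposited value summed per gene. Scripts were tested on simulated data.

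Numbers were taken to pair the wells in the replicate block. Across treatments, deviations of same-numbered wells correlated at 0.45 to 0.55 in all 4 pairs. Wells of another number correlated at 0.48 to 0.52 on the same side and at -0.55 to -0.44 across sides. On a side the values were alike, so they show the side and do not show that numbers pair wells. Results with the replicate block, and comparisons of same-numbered wells, rest on this assumed pairing. Named genes were the 6 members, their transcripts with a mean of 10 reads or more, the 3 genes most correlated with each, list genes past the threshold (at most 6, otherwise the lowest and highest) and overlapping genes. Srf, Chd4 and the genes called with the batch block alone were named after their values were seen. The members and lists were chosen with earlier results of these data known. The within-side fits and the sum over long transcripts were added after the data were seen. A further marker list is not reported here.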

Additional observations from a re-analysis of the deposited data

How the results depend on the processing

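Over all alternatives Egr1, Egr2, Egr3 and Nab1 kept a lower value with MCH. The edgeR count of 35 genes became 157 with DESeq2, 7 with the length offset, 114 with DESeq2 and length factors, 596 with the replicate block, 668 with the batch block, 579 within replicates 1 and 2, 117 within replicates 3 and 4, and 4 to 29 without 1 well (4 without vehicle replicate 4). Of the 6 members, 0 passed without a block, also without any 1 well, 2 with the replicate block (Egr1 -0.18, Egr2 -0.92) and 1 with the batch block (Egr2 -0.92). The block changed no other call of a member. Within replicates 3 and 4 Egr1 (-0.28), Egr2 (-1.29) and Egr4 (-0.52) passed, and Egr4 turned to 0.021 within replicates 1 and 2. The effect between sides passed without the filter for Egr3 (-0.39) and Egr4 (-0.57), and with RLE scaling for none of the 6. The direction of Nab2 turned with the length offset (0.11), with DESeq2 and length factors (0.10) and within replicates 3 and 4 (0.04), and ran from -0.10 to 0.052 without 1 well. Without 1 well, the log2 ratio to Egr1 differed by -0.11 to 0.047 for Egr3, -0.18 to -0.001 for Egr4, -0.001 to 0.13 for Nab1 and 0.01 to 0.26 for Nab2, the transcript share by 0.37 to 0.87 percentage points for Egr1, -4.63 to 5.70 for Nab1 and -11.5 to -3.13 for Nab2, and the log2 fold change of ENSMUST00000026469 ran from -0.19 to 0.031, of ENSMUST00000099157 from -0.05 to 0.52, of ENSMUST00000069792 from -0.10 to 0.058, of ENSMUST00000167732 from -0.63 to 0.47 and of ENSMUST00000168082 from -0.30 to 0.31. The cause of these changes was not tested. Without 1 well the log2 fold changes ran from -0.23 to -0.11 for Egr1, -1.03 to -0.76 for Egr2, -0.29 to -0.12 for Egr3, -0.33 to -0.17 for Egr4 and -0.12 to -0.07 for Nab1. Egr2 rests on 30 to 90 reads per well, and its log2 fold change went from -0.91 to -0.55 with the length offset and -0.56 with DESeq2 and length factors.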
